A study of Mus musculus with 22 samples.

Results

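In adipocytes of obese mice, 489 chromatin regions gained an accessibility peak that was absent in lean mice and absent again after weight loss. They were selected from 102995 regions of chromosomes 1 to 19, each made by merging the overlapping ATAC-seq peaks of 22 libraries. A region was included when it held a peak in 3 of 3 libraries from obese mice (H), in 0 of 3 from lean mice of the same age (C) and in 0 of 3 from mice that had been obese and had returned to chow (HC). They are called gained-and-closed regions here, and their values in C, H and HC are therefore a description of the selection. Peaks of the other 5 groups helped to set the boundaries of the merged regions. Whether those groups had a peak in a region had no further part in the choice.

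ATAC-seq maps open chromatin with a transposase that inserts sequencing adapters where DNA is not packed away by nucleosomes. Open sites away from gene starts are mostly enhancers, stretches of DNA bound by transcription factors that raise the expression of genes at a distance. In fat cells, such sites are held open by factors of adipocyte identity such as PPARγ and C/EBP, while AP-1 factors open further sites when cells are stressed or stimulated. A fat cell enlarges and changes its chromatin in obesity, and it lives long enough to pass through weight gain and weight loss.

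The study asked whether adipocytes keep a chromatin record of obesity after weight loss. All mice were AdipoERCre x NuTRAP animals on a background labelled C576BL6, and they received tamoxifen, which activates a Cre driven by the adiponectin promoter and tags nuclei of adipocytes with biotin. In the short arm, C (n = 3) was on chow to 18 weeks of age, H (n = 3) had 12 weeks of high-fat diet and the same age, HC (n = 3) had 12 weeks of high-fat diet followed by 8 weeks of chow and was 26 weeks old, and CC_s (n = 3) was the chow control of that age. In the long arm, CC_l (n = 2, chow) and HH (n = 3, high-fat diet for 25 weeks) were 31 weeks old, while the 39-week-old groups were CCC (n = 2, chow) and HHC (n = 3), which returned to chow for 8 weeks after the same 25 weeks on high-fat diet. The chow of the final 8 weeks was another product than the earlier low-fat chow, and controls received it too. Age and the type of chow therefore both separate CC_s from C and CCC from CC_l. HC was likewise older than H, and HHC older than HH, and both had received the later chow. In those pairs weight loss cannot be told apart from age or the change of diet.

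Each library came from 1 animal, and 39894 to 60061 peaks per library lay on chromosomes 1 to 19. The lists hold summed coverage and not reads, so the sequencing depth of each library is unknown. The nuclei were labelled as adipocytes, and promoters of 12 of 12 adipocyte marker genes had a peak in every library. Promoters of 12 macrophage genes had a peak in 3 to 5 cases in H, 4 in each C library, 2 to 5 in HH and 5 in each CC_l library. In HC it was 3 to 6, in HHC 3 to 8 and in CCC 4 or 5. Ptprc, Cd163, Mrc1, Tyrobp, Itgam, Cx3cr1 and C1qa had none in any of the H, C or HH libraries. Of these, Cx3cr1 had one in both CC_l libraries and Cd163 in CC_l 1. The summed levels of the 12 genes, on the log2 scale defined further on, were 178 to 181 in H, 178 to 180 in C, 177 to 180 in HH and 179 to 180 in CC_l. Promoters of 12 endothelial genes had a peak in 3 to 5 cases in H, 3 or 4 in C, 3 in each CC_l library and 3 or 4 in 2 HH libraries, but in 12 of 12 cases in HH 1. The numbers were 3 to 8 in HC, 4 to 8 in HHC and 3 to 7 in CCC. The summed endothelial level was 196 in HH 1, and it was 177 to 180 in the H, C and CC_l libraries and 177 and 178 in the other HH libraries. It was also raised in HHC 3, HC 3 and CCC 2, at 188, 185 and 184. The summed adipocyte level was 241 in HHC 3, 242 in HC 3 and 244 in HH 1 and CCC 2, the lowest values of all libraries. HH 1 therefore stands apart from the other HH libraries, and the shares of peaks, the recurrence patterns and the numbers of regions that passed the tests are also given without it. Promoters of 12 genes of the mesothelium, the cell layer that covers the fat pad, had a peak in 2 or 3 cases in H and 4 to 6 in C, in 2 or 3 in HH and 5 in each CC_l library, and in 3 to 6 in HC, 4 to 7 in HHC and 3 to 6 in CCC. Their summed level was 175 to 176 in H, 177 to 180 in C, 176 to 178 in HH and 179 in both CC_l libraries, so it moved with the diet groups. Msln, Gpm6a, Krt18, Muc16, Bnc1 and Upk1b had no peak in any H, C, HH or CC_l library, and Wt1 had one in every C and CC_l library, in no H library and in HH 1 alone of the HH libraries. Promoters of 12 progenitor and fibroblast genes had a peak in 5 to 7 cases in H, 6 or 7 in C, 5 to 9 in HH and 6 in each CC_l library, and in 6 to 8 in HC, 8 to 10 in HHC and 6 to 9 in CCC. Those of 11 lymphocyte genes had one in 2 or 3, 3, 2 or 3 and 3 or 4 cases in H, C, HH and CC_l. HC 3 held the most peaks, and 580 regions fit the rule when it was left out. The rule rested more on other libraries, with 970 regions without H 3, 861 without H 1 and 762 without HC 2. The part of other cell types in the results was not tested. A region open in fewer nuclei and a region less open in each nucleus cannot be told apart in these libraries.

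Sequence is shown first for the 4 gained-and-closed regions of highest signal in HH among those with a peak in every HH library and in no CC_l and no HHC library. Each line gives 300 bp around the highest point of the H signal, on the plus strand of GRCm38 as RefSeq holds it. Capitals mark matches to AP-1 (TGANTCA) and C/EBP (TTGCNNAA) in either direction, or, in the fourth line, a tRNA gene.
chr6:107998150-107998449: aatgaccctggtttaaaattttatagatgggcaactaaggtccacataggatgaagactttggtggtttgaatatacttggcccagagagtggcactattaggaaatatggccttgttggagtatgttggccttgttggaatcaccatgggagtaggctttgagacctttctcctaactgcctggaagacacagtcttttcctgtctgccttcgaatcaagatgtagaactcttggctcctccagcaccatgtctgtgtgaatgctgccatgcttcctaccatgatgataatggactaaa
chr7:39867116-39867415: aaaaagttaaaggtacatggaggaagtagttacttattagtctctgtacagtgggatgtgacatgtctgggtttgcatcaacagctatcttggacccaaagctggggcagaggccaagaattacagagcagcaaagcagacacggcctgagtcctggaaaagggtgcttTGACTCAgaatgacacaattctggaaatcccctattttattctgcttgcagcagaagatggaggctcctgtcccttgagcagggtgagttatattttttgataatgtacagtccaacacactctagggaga
chr5:50641511-50641810: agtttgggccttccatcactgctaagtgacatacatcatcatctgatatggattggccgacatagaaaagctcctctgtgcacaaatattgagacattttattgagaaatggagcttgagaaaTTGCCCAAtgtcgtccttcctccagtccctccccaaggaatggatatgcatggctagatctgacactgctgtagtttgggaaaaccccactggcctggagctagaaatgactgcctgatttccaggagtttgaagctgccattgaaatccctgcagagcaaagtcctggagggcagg
chr13:23270328-23270627: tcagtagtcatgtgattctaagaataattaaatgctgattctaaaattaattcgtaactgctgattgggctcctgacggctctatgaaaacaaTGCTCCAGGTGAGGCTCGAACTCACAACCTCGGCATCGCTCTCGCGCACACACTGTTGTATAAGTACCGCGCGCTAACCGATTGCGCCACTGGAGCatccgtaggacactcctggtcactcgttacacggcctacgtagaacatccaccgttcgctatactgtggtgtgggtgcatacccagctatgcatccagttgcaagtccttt
The first 3 windows were intergenic, 66.7 kb, 350 kb and 583 kb from the nearest start site of a protein-coding gene. The window on chromosome 6 held neither motif, and 81.7% of its bases were marked as repeat. The window on chromosome 7 held 1 AP-1 match and the window on chromosome 5 held 1 C/EBP match. The window on chromosome 13 spans the gene of an isoleucine tRNA at chr13:23270421-23270516 on the minus strand, and the closest protein-coding gene, 14218 bp away, was Vmn1r223, a vomeronasal receptor gene.

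The windows of 2 gained-and-closed regions inside genes were added after their values were seen, because they had small p in the comparison of HH with CC_l and lie in known genes. The first lies in an intron of Adam12, a membrane metalloprotease, and held neither motif. The second lies in an intron of Flt1, a receptor for vascular endothelial growth factor, and held 1 C/EBP match.
chr7:134007961-134008260: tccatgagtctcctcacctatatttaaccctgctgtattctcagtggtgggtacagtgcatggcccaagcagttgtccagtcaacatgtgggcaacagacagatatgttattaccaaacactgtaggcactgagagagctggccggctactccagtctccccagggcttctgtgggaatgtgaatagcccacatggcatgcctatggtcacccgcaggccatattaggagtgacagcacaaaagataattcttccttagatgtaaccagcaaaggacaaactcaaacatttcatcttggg
chr5:147671277-147671576: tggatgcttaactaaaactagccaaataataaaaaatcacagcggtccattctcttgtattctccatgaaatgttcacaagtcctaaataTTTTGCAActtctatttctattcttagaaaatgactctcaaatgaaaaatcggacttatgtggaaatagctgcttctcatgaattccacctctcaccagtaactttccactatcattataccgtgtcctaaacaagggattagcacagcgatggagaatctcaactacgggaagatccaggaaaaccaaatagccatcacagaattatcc

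Gained-and-closed regions lay far from start sites. Of the 489, 11 (2.25%) overlapped a promoter, taken as 2000 bp on each side of a protein-coding start site, against 38.7% of the 23813 regions with a peak in 3 of 3 H libraries and 14.2% of all regions. The median distance from their summit to the nearest start site was 70816 bp, against 19942 bp for the regions of 3 of 3 H libraries, 50246 bp for those of them without a promoter and 46584 bp for all regions. The distance was over 100 kb for 207 (42.3%), against 17.3% and 28.2% in the 2 sets of 3 of 3 H libraries and 33.7% of all regions. The set without promoters was chosen as a comparison after the values were seen. The summit was intergenic in 298, intronic in 174, in a coding exon in 11 and in a UTR in 6, and 199 regions (40.7%) overlapped a gene, against 51.9% of all regions. The bases of the regions had a median GC content of 41.4%, against 45.0% for the regions of 3 of 3 H libraries. The median distance to the nearest region with a peak in 3 of 3 C libraries was 47918 bp, against 10841 bp for the regions of 3 of 3 H libraries and 27392 bp for all regions. Within 5 kb of one lay 52 (10.6%), against 33.7% and 20.8%.

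**Figure D1:**
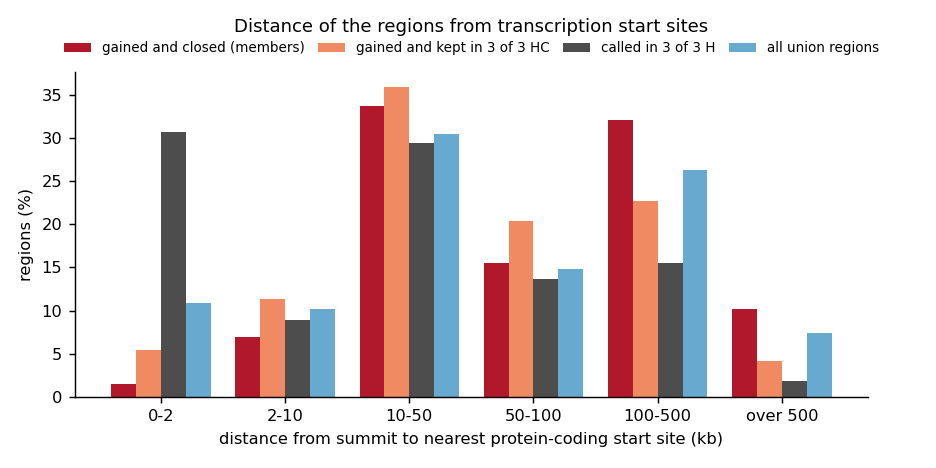
Share of regions (vertical axis, %) by distance from the summit to the nearest protein-coding start site (horizontal axis, kb), for the 489 gained-and-closed regions, the 167 regions gained in H and kept in 3 of 3 HC libraries, the 23813 regions called in 3 of 3 H libraries and all 102995 regions. The bin from 0 to 2 kb holds 1.43% of the gained-and-closed regions, and the 2 bins beyond 100 kb hold 32.1% and 10.2%.

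They were also weak. In each H library the regions were ranked by total signal, the coverage summed over a peak. The median position of the gained-and-closed regions, averaged over the H libraries, was at percentile 25.4, and none lay above percentile 70. In the weakest of the 3 H libraries, their median total signal was 1.15 times the lowest total signal of any region in that library, and for 472 of 489 (96.5%) it was under 2 times. The corresponding share of all regions of 3 of 3 H libraries was 44.7%. The peaks reached a median height of 45, 44 and 51 in H 1, H 2 and H 3, where all regions reached 56, 53 and 73. A gained-and-closed region is thus a region close to the threshold of peak calling in H, and a missing peak in another library does not show that its signal there was 0. Their median width was 3702 bp (range 1535 to 10938), against 8518 bp for the regions of 3 of 3 H libraries and 3044 bp for all regions.

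**Figure D2:**
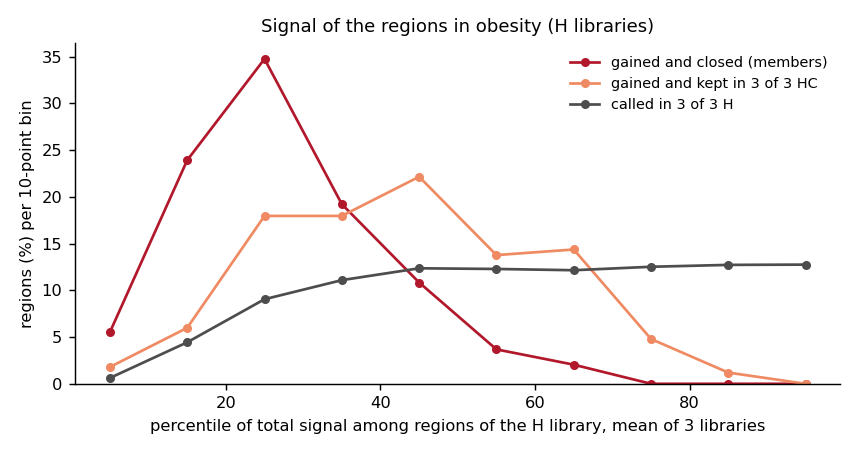
Share of regions (vertical axis, % per 10-point bin) by percentile of total signal in the H libraries (horizontal axis, mean of 3 libraries). Gained-and-closed regions peak between 20 and 30, where 34.8% of them lie, and none lies above 70, while regions gained and kept have a median percentile of 42.7.

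Just outside the rule were 468 regions with a peak in 3 of 3 H, 0 of 3 C and 1 of 3 HC libraries. Their median percentile in H was 28.6, their median width 4183 bp and their median distance to a start site 48364 bp. The 167 regions kept in 3 of 3 HC libraries had a median percentile of 42.7, a median width of 5740 bp and a median distance of 46583 bp, and 11.4% overlapped a promoter.

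The gained-and-closed regions reappeared in the second cohort of obese mice. HH 1, HH 2 and HH 3 had a peak at 28.2%, 52.4% and 77.5% of them, a mean of 52.7% ± 24.6 (SD, n = 3). CC_l 1 and CC_l 2, the lean controls of the same age, had a peak at 5.93% and 6.54%. The groups did not overlap, and the lowest HH library, HH 1, was the one with peaks at the endothelial promoters. Without it the HH libraries stood at 52.4% and 77.5%. Of all regions, 30.8% to 33.2% had a peak in the HH libraries and 31.0% and 32.5% in the CC_l libraries. Regions of 3 of 3 H libraries had a peak in 84.6% to 96.6% of cases in HH and in 87.8% and 90.9% in CC_l.

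After weight loss in the second cohort the share was low again. HHC 1, HHC 2 and HHC 3 had a peak at 11.04%, 6.13% and 10.0% of the gained-and-closed regions, a mean of 9.07% ± 2.59 (SD, n = 3). The CCC controls had a peak at 1.84% and 5.52%. Every HHC library lay below every HH library and above both CCC libraries, but HHC 2 and CCC 2 were closer to each other than the libraries within either group. The order of HHC below HH was lost when a peak had to cover 50% of a region, where HH 1 fell to 7.88% and the highest HHC library stood at 12.1%. The order of HHC above CCC was lost when H 1 was left out of the selection rule, with the lowest HHC library at 5.34% and the highest CCC library at 5.57%. It was also lost without H 3, at 5.98% and 6.49%, and with regions chosen at 50% of their length covered, at 18.5% and 22.7%. Among the CC_s libraries, the controls of the HC mice, the shares were 10.6%, 3.89% and 4.70%. The regions gained and kept in HC differed in level, with a peak at 61.7%, 60.5% and 49.1% of them in the HHC libraries and at 31.1% and 24.6% in the CCC libraries. Regions of 3 of 3 H libraries were called in 65.8% of cases in HHC 3 and in 86.7% to 87.3% in the other HHC libraries.

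**Figure D3:**
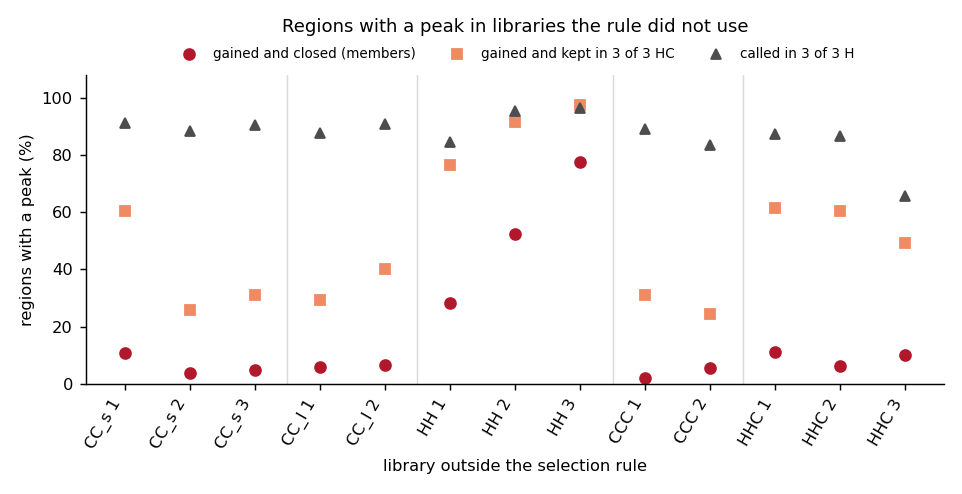
Share of regions with a peak (vertical axis, %) in each of the 13 libraries outside the selection rule (horizontal axis), for gained-and-closed regions (circles), regions gained and kept in 3 of 3 HC libraries (squares) and regions called in 3 of 3 H libraries (triangles). The circles stand at 28.2% to 77.5% in HH and at or below 11.04% in every other library.

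How far peaks stood above the calling threshold differed between libraries. The median maximum signal of a library's peaks, divided by the lowest, was 4.7 to 6.4 in H and 6.82 to 8.92 in C, and 3.75 to 6.2 in HH and 4.67 and 7.3 in CC_l. In HC 1, HC 2 and HC 3, which the rule used, it was 6.5, 6.25 and 2.43. The HC libraries had a peak at 69.1% to 94.3% of the regions of 3 of 3 H libraries. The ratio was 2.25 in HHC 3 and 3.67 in CCC 2, which had a peak at 10.0% and 5.52% of the gained-and-closed regions. Its part in the result was not tested.

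Single regions recurred unevenly. Of the 489, 431 (88.1%) had a peak in at least 1 HH library, 192 (39.3%) in 2 of them and 75 (15.3%) in all 3. A peak in 2 of them was found at 8.40% of all regions and 14.3% of the regions of 3 of 3 H libraries. For a peak in all 3 these shares were 21.4% and 81.5%. Among the 489, at least 1 CC_l library had a peak at 52 (10.6%), at least 1 HHC library at 116 (23.7%) and at least 1 CCC library at 35 (7.16%). Of all regions, 44.7% had a peak in at least 1 HH library, 36.8% in CC_l, 55.9% in HHC and 37.2% in CCC, and of the regions of 3 of 3 H libraries 99.2%, 92.8%, 93.2% and 91.3%. A larger share of the HH than of the CC_l libraries had a peak at 412 regions (84.3%), and a smaller share at 20 (4.09%). Among the regions of 3 of 3 H libraries these were 12.7% and 11.1%, and among all regions 17.1% and 14.6%. Without HH 1 the numbers were 395 and 7, and the shares were 12.0% and 3.02% of the regions of 3 of 3 H libraries and 8.96% and 10.2% of all regions. A peak in every HH and no CC_l library was found at 59 regions (12.1%), where the background was 0.991% of all regions and 2.47% of the regions of 3 of 3 H libraries. In 31 of them (6.34%) no HHC library had a peak either, where the background was 0.312% and 0.71%. Without HH 1 these counts were 187 and 127 (38.2% and 26.0%). The background was then 2.43% and 1.08% of all regions, and 4.68% and 1.83% of the regions of 3 of 3 H libraries. Other regions gained in H recurred as well. Of the 468 just outside the rule, 23.1% had a peak in every HH and no CC_l library and 10.7% had no HHC peak either, and of the 167 kept in HC the shares were 32.9% and 1.20%. Without HH 1 these shares were 48.7% and 25.4% just outside the rule and 41.3% and 2.99% among the kept regions. Of the 489, 1 region (0.204%) had a peak in all 3 HHC libraries. The share was 15.9% of all regions, 61.5% of the regions of 3 of 3 H libraries and 25.7% of the kept regions. The 1 gained-and-closed region lies in an intron of Xrcc4, a gene of DNA double-strand break repair. Its levels in the 3 HHC libraries were 14.73, 14.02 and 14.41 on the log2 scale described next, while no CC_l or CCC library had a peak there.

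Regions that were stronger in H had a peak in HH more often. In the weakest 98 of the gained-and-closed regions 24.5%, 30.6% and 61.2% had a peak in HH 1, HH 2 and HH 3, and in the strongest 98 it was 37.8%, 74.5% and 92.9%. The CC_l libraries had a peak at 7.14% and 4.08% of the weakest 98 and at 6.12% and 6.12% of the strongest 98. The shares in HHC were 6.12% to 8.16% in the weakest 98 and 8.16% to 13.3% in the strongest 98. The 75 regions with a peak in all HH libraries had a median percentile in H of 32.4, and the 58 with none had 16.6. An HHC peak was found at 33 of the 75 (44.0%) and at 7 of the 58 (12.1%).

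**Figure D4:**
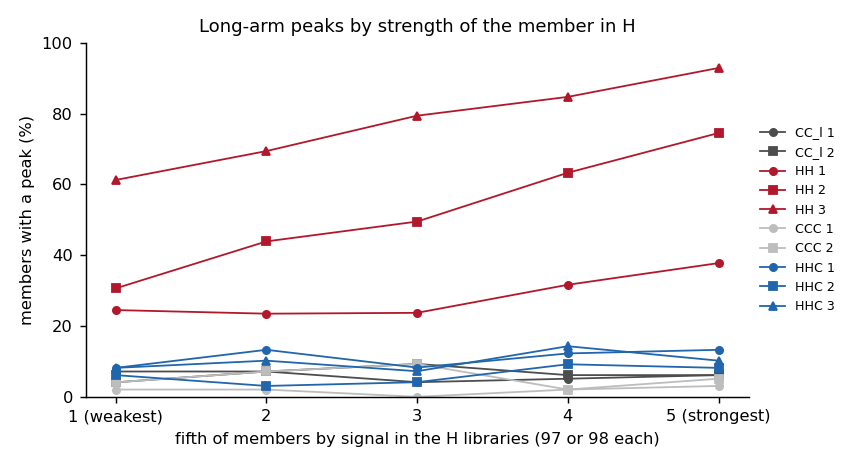
Share of gained-and-closed regions with a peak (vertical axis, %) in each of the 10 long-arm libraries, in 5 equal bins of the regions ranked by signal in H (horizontal axis, 97 or 98 regions each). The lines of HH 2 and HH 3 rise from 30.6% and 61.2% to 74.5% and 92.9%, and the CC_l, CCC and HHC lines stay at or below 14.3%.

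For signal, each library was rank-mapped so that the 29500 strongest regions of every library take the same set of values, and all other regions, with a weak peak or none, sit at a floor of 14.01 (log2 total signal). A difference from the floor is bounded, because values under it are not known. The median level of the gained-and-closed regions was 14.17 for the mean of the HH libraries and 14.01, the floor, for CC_l, HHC and CCC. The median difference between HH and CC_l was 0.16 (log2), with 389 regions higher in HH, 16 lower and 84 at the same level. Among the regions of 3 of 3 H libraries it was 0, with 11693 higher and 11906 lower. For the gained-and-closed regions it was 0 without HH 3, 0.10 with the 20000 strongest peaks or with equal numbers of peaks, 0.34 by the maximum signal and 0.52 with median-centred scaling. Between HHC and HH it was -0.15, with 29 higher and 381 lower. Among the regions of 3 of 3 H libraries it was -0.12, with 8711 higher and 14896 lower, and among those of them without a promoter -0.21. Between HHC and CCC it was 0 for the gained-and-closed regions, with 92 higher, 22 lower and 375 equal, while among the regions of 3 of 3 H libraries 10025 were higher and 12593 lower. These comparisons share the HH and HHC libraries among them.

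Tested one by one, few regions passed. A region was tested when it lay above the floor in enough libraries of the groups compared, and gained-and-closed regions met this mostly through their HH peaks. The difference was above 0 in 209 of the 219 tested in HH against CC_l, below 0 in 83 of the 89 tested in HHC against HH, and above 0 in 222 of the 250 tested for the change of the obesity difference with weight loss, which is HH minus CC_l against HHC minus CCC. The filter thus favoured these directions, so the counts below describe the regions that could be tested, and nothing is read from a share above the background.

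Of the 219, 3 passed the cut-offs used here, an unadjusted p under 0.01 and a log2 difference above 1, all higher in HH. That is 1.37% of those tested, where the background was 1.34% of the 32964 tested regions. The share moved when any HH library was left out, to 15 of 176 (8.52%) without HH 1, where the background was 2.98%, to 4.76% against 1.11% without HH 2 and to 5.26% against 1.19% without HH 3. It also moved by the maximum signal, to 6.88% against 0.879%, with median-centred scaling, to 5.76% against 2.49%, and with regions chosen at 50% of their length covered, to 5.18% against 1.34%. None of the 219 passed at an adjusted p under 0.05 in limma, and 15 (6.85%) had an unadjusted p under 0.05, against 4527 of the 32964 (13.7%). This order held with some settings. The shares were 8.57% against 12.8% with the 20000 strongest peaks and 6.33% against 14.1% with equal numbers of peaks. They were 3.21% against 9.52% without the filter on low values and 6.39% against 13.9% with the replicate number as a block in the fit. The order turned with other settings. The shares with a p under 0.05 were 46.6% against 22.8% without HH 1, 29.5% against 12.4% without HH 2 and 26.3% against 13.7% without HH 3. They were 27.4% against 12.2% with all long-arm libraries in the fit and 65.5% against 18.7% with median-centred scaling.

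In HHC against HH 1 of 89 passed, lower in HHC, where the background was 0.682%, and 16 had an unadjusted p under 0.05 (18.0%, with 5.89% over all tested regions). With median-centred scaling the latter shares were 4.62% and 5.63%. Without HH 1, 2 of 50 passed, where the background was 0.946%. In HHC against CCC 0 of 21 passed, where the background was 0.118%, and 0 of the 21 had an unadjusted p under 0.05, against 6.20% of all tested regions. For the change of the obesity difference 1 of 250 passed, where the background was 0.486%. Without HH 1, HH 2 or HH 3 it was 11 of 216, 4 of 162 or 4 of 124, where the background was 0.994%, 0.545% and 0.486%. Between the control groups CCC and CC_l 0 of 12 passed, where the background was 0.989%, and 0 had an unadjusted p under 0.05, against 10.2% of all tested regions.

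The region with the smallest p lies at chr6:107996486-108005285, 8800 bp of intergenic DNA whose window is the first shown above. Its levels were 15.77, 15.61 and 16.39 in the HH libraries, and it had no peak in any CC_l, CCC, HHC or CC_s library. The deposited total signals were 31173, 61205 and 85996 in HH and 47794, 65727 and 74505 in H. All HH libraries stood above all other libraries of the long arm. The difference from the floor was 1.92 ± 0.37 (log2, SE) in HH against CC_l, with an adjusted p of 0.167 in limma.

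The second is the intronic region of Adam12 at chr7:134005691-134011123, 217 kb from the nearest start site. Its levels were 15.33, 15.27 and 15.23 in HH, at the floor in both CC_l libraries, 14.56 in HHC 2 and 14.11 in CCC 2. The HH libraries were alike and lay above all others of the long arm. The difference was 1.27 ± 0.28 (log2, SE), with an adjusted p of 0.173 in limma. CC_s 2 also had a peak there.

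The third is intergenic, at chr2:50828660-50835717, 315 kb from a start site. Its levels were 15.91, 15.23 and 15.02 in HH, at the floor in CC_l, and 14.32 and 14.07 in HHC 1 and HHC 2. The difference was 1.38 ± 0.38 (log2, SE), with an adjusted p of 0.213 in limma. Both HHC peaks were weaker than every HH peak.

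The next 3 by p were below a log2 difference of 1. An intergenic region at chr14:36326618-36330087 stood at 14.87, 14.67 and 14.72 in HH. The intronic region of Zfp407, a zinc finger gene, stood at 14.52, 14.78 and 14.69, and that of Flt1 at chr5:147670661-147673461 at 14.70, 14.60 and 14.50. Flt1 is 1 of the 12 endothelial marker genes, and HH 1, with peaks at all of their promoters, had the highest of these 3 values. None of the 3 had a peak in any CC_l, CCC, HHC or CC_s library. Their differences were 0.75, 0.66 and 0.60 on the log2 scale, with adjusted p of 0.214, 0.234 and 0.236 in limma.

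**Figure D5:**
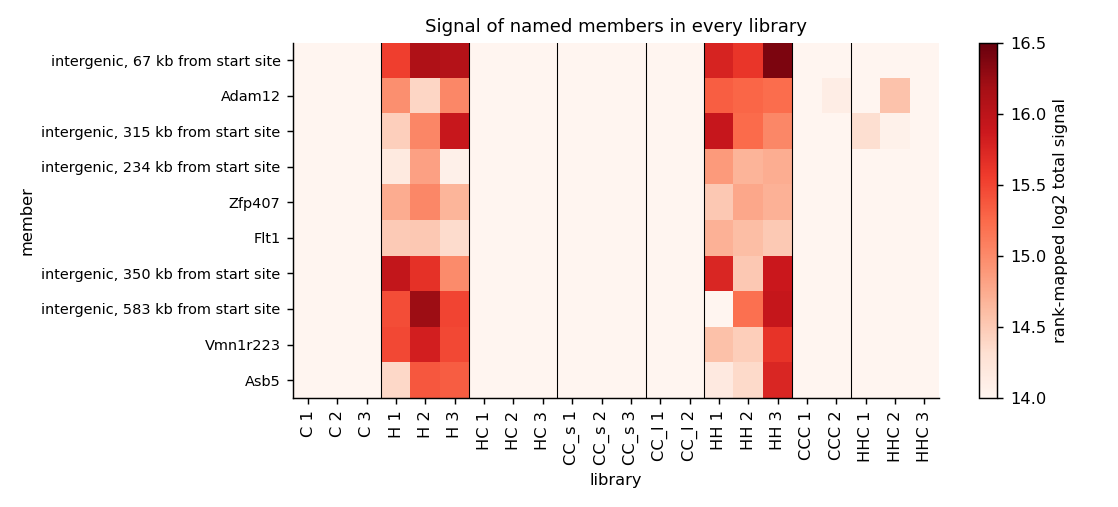
Rank-mapped log2 total signal (colour) of 10 gained-and-closed regions in all 22 libraries (columns). The regions are those with the smallest p in HH against CC_l and those of highest HH signal among regions with no CC_l and no HHC peak, and the H, C and HC columns show the selection. Colour stands out in H and HH, where the region on the first line reaches 16.39, and is near the floor of 14.01 elsewhere.

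The strongest regions in H differed in how they stood in the long arm. By mean signal in H they were the chromosome 6 region, an intronic region of Fshr, the receptor for follicle-stimulating hormone, an intronic region of Cd6, a T cell surface receptor, regions beside Rab29, a small GTPase, and Mtf2, a Polycomb protein, and the chromosome 5 region shown above. The Fshr region stood at 15.25, 16.14 and 15.89 in H but at 14.01, 14.58 and 14.60 in HH, and at 14.30 and 14.34 in CC_l. Its HH and CC_l libraries overlapped. The Mtf2 region stood at 14.73, 16.32 and 16.02 in HH and at the floor in CC_l, and was again at 15.95 and 14.88 in HHC 1 and HHC 2, with no peak in HHC 3. The Cd6 region had no peak in HH 1 and stood at 15.18 and 15.41 in HH 2 and HH 3, and at 14.92 in HHC 1.

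The 11 promoters were those of Panx3, Arl14epl, Asb5, Crx, Cd101, Olfr728, Yipf7, Clcn1, Fezf1, Prl8a9 and Timm8a2. Several of these genes are known from other tissues, such as Crx from photoreceptors, Clcn1, a chloride channel, from skeletal muscle and Olfr728, an olfactory receptor, from the nose. HH 1, HH 2 and HH 3 had a peak at 4, 6 and 11 of the 11. CC_l 1 and CC_l 2 had one at 1 and 2 of the 11, and HHC 1, HHC 2 and HHC 3 at 1, 2 and 3. The CC_s libraries had one at 2, 1 and 2, and the CCC libraries at 1 each. The Panx3 region at chr9:37665834-37672346, which holds the start site of a pannexin channel gene, had the highest H signal of the 11. It stood at 15.23, 15.85 and 15.02 in H, had no peak in HH 1 and stood at 14.30 and 15.26 in HH 2 and HH 3. No CC_l, CCC or HHC library had a peak there. At Crx, 3 of 3 CC_s and 2 of 2 CC_l libraries had a peak as well.

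Of the 489 regions, 266 could be linked to a protein-coding gene within 20 kb, 251 genes in all. The linked share was 54.4%, against 79.3% of the regions of 3 of 3 H libraries. Most genes were linked to 1 region, 13 genes to 2 and Macf1, a protein that crosslinks actin and microtubules, to 3. The 3 Macf1 regions were intronic and their HH levels were at the floor, apart from 14.17 in HH 3 at one of them. The 13 genes with 2 regions included Rbfox1, an RNA splicing factor, Grin2a, a glutamate receptor subunit, and Lrrc4c.

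The linked genes were set against 7 lists of pathway genes. The 251 linked genes are 1.21% of 20780 gene names, and the lists together had 3 of 216 linked (1.39%). None of 34 genes of adipocyte identity and lipid storage was linked. None of 33 inflammatory genes, 25 lysosome and lipid-associated macrophage genes, 35 cytoskeleton and adhesion genes or 22 AP-1 and stress-response factors was linked. Insulin and growth factor signalling had 2 of 28, and extracellular matrix and TGF-beta had 1 of 39. The linked genes were Igf1r, the receptor for insulin-like growth factor, Grb14, an adaptor that restrains the insulin receptor, and Lama2, a laminin chain of the basement membrane. The intronic region of Igf1r at chr7:68192305-68195013 stood at 14.01, 14.25 and 14.14 in HH, with a peak in all 3 and in no CC_l, CCC or HHC library. The difference was 0.13 ± 0.11 (log2, SE), and the adjusted p was 0.626 in limma. The region of Grb14 had a peak in 2 HH libraries and in HHC 2. The region of Lama2 stood at 14.28, 14.23 and 15.06 in HH, with a peak also in CC_l 2, CC_s 1 and CC_s 2.

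In the 300 bp around the summit, 18.0% of gained-and-closed regions held an AP-1 match and 35.6% a C/EBP match. Of the regions of 3 of 3 H libraries 11.1% and 23.6% did, and of those without a promoter 14.2% and 30.2%. The shares were 16.7% and 32.1% in the 468 regions just outside the rule and 22.8% and 32.3% in the 167 kept. A RUNX match (TGTGGTT) was found in 10.0%, against 7.22% of the regions of 3 of 3 H libraries without a promoter. A match to SP and KLF (GGGCGG), common at promoters, was found in 3.07%, against 26.0% and 7.69%. The cAMP response element (TGACGTCA) was found in none, against 1.59% and 0.404%. The NFI half-site (TTGGCA) was found in 31.5%, against 26.2% and 32.6%. Presence of AP-1 went with little difference in HH. The share with a peak in HH 1, HH 2 and HH 3 was 31.8%, 53.4% and 76.1% of the 88 regions with a match and 27.4%, 52.1% and 77.8% of the 401 without.

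A tRNA gene lay in 12 of the 489 regions (2.45%), against 0.613% of the regions of 3 of 3 H libraries and 0.151% of all regions. This count was made after the sequence of the chromosome 13 window had been read, and was not tested. Of the 12, 7 lie on chromosome 13 between 21249194 and 23270516 and 5 on chromosome 3 between 96332740 and 96479462, and several are close neighbours, so they are not 12 separate places. Transfer RNA genes have near-identical copies, and how reads that map to several copies were treated is not given in the sources used here. Of these regions 3 had a peak in all HH libraries, 4 in 2 and 5 in 1, while 1 had a peak in a CC_l library and 0 in an HHC library. At the window on chromosome 13, shown above, the HH libraries stood at 14.57, 14.46 and 15.62 and all CC_l, CCC and HHC libraries at the floor. The difference was 0.88 ± 0.40 (log2, SE), with an adjusted p of 0.406 in limma.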

How the data were processed

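ATAC-seq peaks of 22 libraries were used as deposited. Per the labels' tool list, the authors used Trim Galore 0.6.6, Bowtie2 2.4.4, SAMtools 1.13, bedtools 2.30 and SEACR 1.3, and the build was GRCm38 (mm10). Peaks were called per library in stringent mode, without pooling. The study removed peaks in blacklisted regions, and whether the deposited lists precede that step is not given in the sources used here. The deposited signal values are the total and the maximum coverage of each peak, not normalized between libraries. The study's reporting summary gives a minimum number of reads per sample, but the depth of each library is unknown. No interval or floor in reads can be given. Unmatched columns numbered 0.

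Peaks on chromosomes 1 to 19 that overlapped by 1 bp were merged, and a region was called in a library with an overlap of 1 bp. Total signal was rank-mapped over the 29500 strongest regions of each library. Genes were GENCODE vM21 basic protein-coding genes, and a region was linked to the closest within 20000 bp. Sequence and tRNA genes came from RefSeq GRCm38. Motifs were searched on both strands.

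Groups of the long arm were compared with limma 3.58.1 (R 4.3.3; lmFit, eBayes with trend) fitted to the groups in question only, over all regions above the floor in at least the number of libraries of the smaller group, with Benjamini-Hochberg adjustment. The code was tested on simulated data. Python 3.11.15, numpy 2.4.6 and pandas 2.3.3 were used otherwise. The regions, gene lists, motifs and tests were chosen with earlier results of these data known. Regions named in the text were those of smallest p, of highest H signal, at promoters, of highest HH signal without CC_l and HHC peaks, with a peak in every HHC library, and linked to listed genes.  Alternatives were other peak lists, an overlap of 50%, the maximum signal, a median-centred scaling, other filters and fits, and leaving out each library.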

Additional observations from a re-analysis of the deposited data

Results flagged for a closer look

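The intergenic region at chr6:107996486-108005285 was singled out by its difference of differences, in which HH minus CC_l exceeded HHC minus CCC by 1.92 ± 0.44 (log2, SE), with an unadjusted p of 0.00165 and an adjusted p of 0.622 in limma. All 3 HH libraries were above the floor and all 7 other long-arm libraries were at it, so the value is the same number as the difference between HH and CC_l and adds nothing to it on weight loss. The region entered the test through its HH peaks. Among 39716 regions tested for this change, 249 passed the same cut-offs and none passed at an adjusted p under 0.05.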

How the results depend on the processing

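The number of regions that fit the rule depended on the peak list, at 221 with the 20000 strongest peaks of each library and 508 to 970 when 1 of the C, H or HC libraries was left out of the rule (861 without H 1, 970 without H 3 and 762 without HC 2). The lowest HH library kept a higher share of peaks than the highest CC_l library under each of the choices of peak list, overlap and left-out C, H or HC library that were run, with the smallest gap at 7.88% against 6.54% when 50% of a region had to be covered. In that setting HHC 2, at 12.1%, and all 3 CC_s libraries, at 8.27% to 9.42%, exceeded HH 1.

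Regions with a peak in every HH and no CC_l library numbered 26 with the 20000 strongest peaks, 13 with 50% of a region covered, and 61 to 187 with a library left out. With no HHC peak as well, they numbered 20, 8, and 31 to 127. The highest values came without HH 1, followed by HC 2 and HH 2.

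The number of regions called in HH against CC_l was 3. It was 15 by the maximum signal, 16 with median-centred scaling, 18 with 50% of a region covered, 0 with the 20000 strongest peaks, with equal numbers of peaks or at an adjusted p under 0.05, and 0 to 15 with a library left out. It was 0 without either CC_l library, where the lone control is assumed to vary like HH, and 15 without HH 1. The number called in HHC against HH was 11 of 204 with 50% of a region covered (5.39%, background 0.682%). By the maximum signal it was 12 of 95 (12.6%, background 0.754%). It was 3 of 89 without the trend (3.37%, background 1.09%) and 4 of 89 with all long-arm libraries in the fit (4.49%, background 1.36%). It was 0 with the 20000 strongest peaks or at an adjusted p. With a library left out it was 0 to 8, highest at 8 of 202 without HC 2 (3.96%, background 0.682%). For the change of the obesity difference the number called was 5 of 344 with 50% of a region covered (1.45%, background 0.486%). By the maximum signal it was 10 of 253 (3.95%, background 0.375%), and without the trend 3 of 250 (1.2%, background 0.710%). It was 0 with the 20000 strongest peaks, with equal numbers of peaks or at an adjusted p. It was 1 to 11 with a C, H, HC, HH or HHC library left out. The median difference between HH and CC_l was 0.10 with the 20000 strongest peaks or equal numbers of peaks, 0.34 by the maximum signal, 0.52 with median-centred scaling, and 0 to 0.20 with a library left out, lowest without HH 3. The causes were not tested.

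Libraries of the same replicate number had correlations of deviations between -0.37 and 0.27, and not every sample correlated best with its own number. With 2 libraries each, CC_l and CCC have deviations that mirror each other, so these correlations cannot settle whether replicate numbers pair the samples. With the replicate block, 4 of 219 regions were called in HH against CC_l (1.83%, background 1.55%) and 1 of 21 in HHC against CCC (4.76%, background 0.819%). The other counts of gained-and-closed regions called were 1, 0 and 1 as before. Over all tested regions the block moved the calls from 231 to 73 in HHC against HH and from 225 to 598 in HHC against CCC. In the latter, 3 of the 21 gained-and-closed regions tested (14.3%) then had an unadjusted p under 0.05, against 9.76% of all tested regions.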
